A study of Mus musculus with 8 samples.

Results

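The Phf11 gene cluster of the mouse is a row of 4 neighbouring copies, Phf11a, Phf11b, Phf11d and Phf11c, and its members were taken from the deposited table of unique molecular identifier (UMI) counts by their symbols, 4 of 16889 genes. All 4 passed the low-count filter. The values were single-cell RNA counts from the colonic lamina propria of 8 female CD98hcΔCX3CR1 mice, sorted as CD11b+ cells that carried CCR2 or CD64 and captured with a 3′ kit, a well per mouse. All mice had the floxed CD98hc gene (Slc3a2) and a tamoxifen-inducible Cre recombinase under the Cx3cr1 promoter. The 4 control mice received corn oil, and the 4 cKO mice received 100 µl of tamoxifen at 20 mg/ml on 5 consecutive days, with the readout at day 7 and an age of 6 to 12 weeks. Only the cKO mice received tamoxifen, so an action of the drug and the deletion cannot be told apart. The Cre line deletes the gene only in cells that use the Cx3cr1 promoter, and the 3′ counts of Slc3a2 (233 to 493 CPM, the usual scaling of counts to library totals, in control and 291 to 357 CPM in cKO) lie outside the deleted exon and check nothing about the deletion. The family was chosen by its level in cKO against control mice and in the cell clusters of these same data, so those levels are given as a description, without a test.

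PHD fingers are small zinc-binding folds, and many proteins that carry one read the modification state of histones. Human PHF11 was first followed as a gene linked to asthma and IgE levels, and its protein has been shown to bind replication protein A and to promote the resection of DNA ends. The mouse copies are commonly found among the genes that rise when cells sense type I interferon, which acts through the receptor chains IFNAR1 and IFNAR2 and the kinases JAK1 and TYK2.

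The 4 copies lie within 118469 bases of chromosome 14 (GRCm38, the assembly that mm10 names), all on the minus strand, with Phf11a (ENSMUSG00000044703) at chr14:59276913-59297522, Phf11b (ENSMUSG00000091649) at chr14:59320964-59341351, Phf11d (ENSMUSG00000068245) at chr14:59347407-59365470 and Phf11c (ENSMUSG00000091144) at chr14:59380833-59395381. All are annotated as protein-coding. Their coding sequences, of 828 to 1017 bases, were near-identical for Phf11a and Phf11b (97.1% of 828 aligned bases) and between 86.0% and 90.4% identical for the other 5 pairs. The bases before each start are shown because the 4 copies moved together between conditions. They are the 250 bases before the start in RefSeq's GRCm38.p6 table, 5′ to 3′ on the minus strand, at chr14:59297523-59297772 for Phf11a, chr14:59341331-59341580 for Phf11b, chr14:59365491-59365740 for Phf11d and chr14:59393513-59393762 for Phf11c. Capitals mark matches to the core of the interferon-stimulated response element, which is GAAA, any 2 bases and GAAA again. The shorter AANNGAAA, the core bound by interferon regulatory factors, and TTCNNNGAA, the gamma-activated site, were searched as well, on both strands.
Phf11a: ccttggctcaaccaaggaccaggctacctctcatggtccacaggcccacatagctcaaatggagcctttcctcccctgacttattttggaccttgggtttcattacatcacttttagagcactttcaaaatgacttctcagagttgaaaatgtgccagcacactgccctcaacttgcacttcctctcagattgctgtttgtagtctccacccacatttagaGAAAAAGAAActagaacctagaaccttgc
Phf11b: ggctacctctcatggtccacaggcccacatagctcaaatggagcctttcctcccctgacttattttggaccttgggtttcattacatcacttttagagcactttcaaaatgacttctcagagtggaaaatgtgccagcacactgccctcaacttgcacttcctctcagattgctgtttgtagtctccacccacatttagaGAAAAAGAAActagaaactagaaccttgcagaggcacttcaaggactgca
Phf11d: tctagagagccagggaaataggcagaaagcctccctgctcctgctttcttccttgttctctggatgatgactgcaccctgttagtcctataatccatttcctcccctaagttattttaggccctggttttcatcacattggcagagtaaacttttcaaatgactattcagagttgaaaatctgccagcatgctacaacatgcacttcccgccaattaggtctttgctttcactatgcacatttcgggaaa
Phf11c: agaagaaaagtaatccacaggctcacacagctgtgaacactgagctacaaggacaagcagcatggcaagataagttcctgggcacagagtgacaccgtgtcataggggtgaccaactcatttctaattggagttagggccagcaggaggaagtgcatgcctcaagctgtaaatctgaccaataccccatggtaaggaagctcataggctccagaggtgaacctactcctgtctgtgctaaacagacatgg
Phf11a and Phf11b held the same GAAAAAGAAA, with 19 and 40 bases between the match and the start, and the longer motif there overlaps the shorter one. Of 32851 promoters of the same length, 2.98% held the longer motif and 21.3% held AANNGAAA on either strand. The window of Phf11c precedes RefSeq's start and lies inside the gene span of the other annotation given above, so it does not show the bases before that span. No letters of either motif stood in it, and in Phf11d a match to AANNGAAA spanned the annotated start itself. TTCNNNGAA was found in none of the 4 windows and in 7.02% of all. The motifs were chosen after the sequences had been seen. The windows of Phf11a and Phf11b were alike in 99.1% of 229 aligned bases, and the other pairs in 58.8% to 72.4%.

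All 4 copies were higher in cKO mice. Phf11a stood at 48.4, 59.3, 124 and 60.9 CPM (UMIs of the gene scaled to the same total in each mouse) over all cells of control mice 1 to 4, and at 131, 133, 185 and 214 CPM in cKO mice 5 to 8. Phf11b stood at 71.5, 86.9, 136 and 89.5 CPM in control and at 153, 168, 256 and 278 CPM in cKO mice. Every cKO mouse was above every control mouse for both copies, with control mouse 3 nearest to the cKO mice. Phf11c stood at 48.9, 59.0, 122 and 62.3 CPM in control and at 145, 135, 202 and 220 CPM in cKO mice. Phf11d stood at 36.9, 46.5, 91.7 and 52.8 CPM in control and at 125, 117, 182 and 191 CPM in cKO mice. The groups did not overlap for any of the 4 copies, as for 4.00% of the 11387 genes tested. The log2 fold changes in the edgeR fit were 1.36 ± 0.30 (standard error) for Phf11a, 1.30 ± 0.24 for Phf11b, 1.44 ± 0.29 for Phf11c and 1.62 ± 0.28 for Phf11d, over 4 mice in each group, and the median over all genes tested was -0.03. Cells of some types were more frequent in one condition, and fewer cells of a type cannot be told apart from less RNA per cell in these sums.

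**Figure D1:**
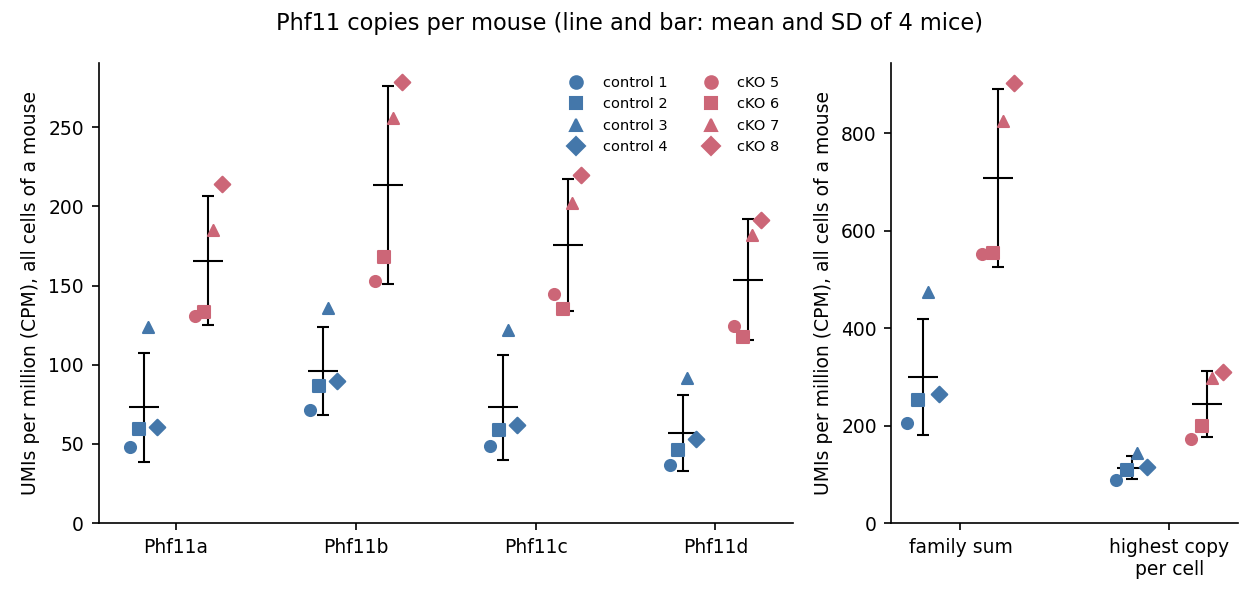
CPM of each Phf11 copy (left), and of the family as the sum of the copies or as the highest copy in each cell (right), with 1 point per mouse and the mean and SD of 4 mice. The cKO points sit above the control points for every copy, and control mouse 3 is the highest control throughout.

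The 4 counts moved together within cells. Of 3213 cells kept, 1255 had a UMI of the family, and 541 of these (43.1%) had UMIs of all 4 copies at once. The cell with the most UMIs, from the Saa3 Arg1 cluster of cKO mouse 8, held 24 of Phf11a, 33 of Phf11b, 24 of Phf11c and 23 of Phf11d among its 8486 UMIs. In the next cell, dendritic cell-like and from the same mouse, the counts were 20, 27, 21 and 20. Across cells, Pearson's r between copies was 0.86 to 0.92 (n = 3213 cells that share libraries and depth). The split of a cell's UMIs between copies was also tighter than a binomial draw. Its variance over cells with at least 2 UMIs was 0.280 to 0.483 times that of such a draw for the 6 pairs of copies. Whether a molecule was counted for several copies was not tested. For 231 pairs among 22 other interferon-stimulated effectors with 824 to 5050 UMIs in all, the median of this ratio was 1.48, and a single pair fell under 1. That pair was Oas1a and Oas1g, a pair of neighbouring oligoadenylate synthetase genes, at 0.113. A cell with UMIs of Phf11c held no other copy in 1.78% of cases, against 2.99% for Phf11a, 4.66% for Phf11d and 11.8% for Phf11b.

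**Figure D2:**
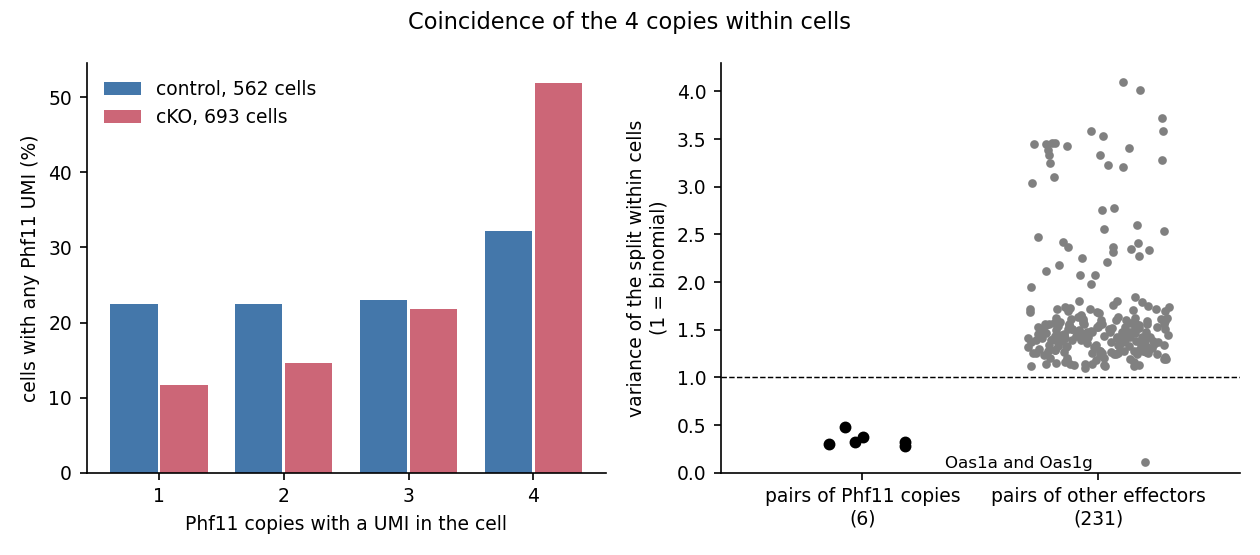
Left, percent of the cells with any Phf11 UMI in which 1, 2, 3 or 4 copies had one, for control and cKO cells. Right, variance of the split of UMIs between 2 genes within cells, relative to a binomial draw (dashed line at 1), for the 6 pairs of Phf11 copies and for 231 pairs of other effectors; the copies lie between 0.280 and 0.483.

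The annotated transcripts of the copies share much of their 3′ sequence. Of the 58-base windows in the last 500 bases of the transcripts, 64.1% of those of Phf11c stood unaltered in another copy, 37.9% of those of Phf11b, 28.7% of those of Phf11a and 22.8% of those of Phf11d. None stood in a transcript of another gene. The authors' aligner reported 1 alignment for a read that fitted several places, and which copy such a read was given to cannot be read from the counts. Values of single copies are therefore uncertain, and the family is given below by both bounds that the counts allow. The sum of the 4 copies was 7972 UMIs over all cells, and the sum of the highest copy in each cell was 2973, a ratio of 2.68. The second measure was added after the coincidence had been seen.

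By either measure the family was higher in all 4 cKO mice than in any control mouse. The family sum was 206, 252, 474 and 266 CPM in control and 553, 554, 825 and 903 CPM in cKO mice, with means of 299 ± 119 and 709 ± 182 CPM (SD, n = 4 each). The log2 fold change was 1.35 ± 0.29 (standard error). The highest copy per cell came to 88.0, 109, 144 and 114 CPM in control and to 173, 199, 297 and 309 CPM in cKO mice, a log2 fold change of 1.23 ± 0.22. Control mouse 3 and cKO mouse 5 were the smallest libraries, with 85 and 83 cells. A single macrophage-like cell held 45 of the 279 family UMIs of control mouse 3, or 16.1%. With both libraries left out the log2 fold change of the sum was 1.79.

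Markers of other cell types moved with the condition, and their part in the whole-mouse difference was not tested. The 10 monocyte markers summed to 1789 to 3460 CPM in control and 7163 to 10566 CPM in cKO mice, and 5 of 10 passed the test as higher, against 2.87% of all genes tested. The 12 dendritic cell markers summed to 1174 to 1442 CPM in control and 461 to 605 CPM in cKO mice, and 7 of 12 passed as lower, against 1.55% of all genes. All markers of both lists had UMIs. Of the 17 macrophage markers, which summed to 12220 to 24281 CPM in control and 10421 to 16616 CPM in cKO mice, 2 passed as higher and 1 as lower. The 8 neutrophil markers summed to 74.0 to 374 CPM in control and 183 to 294 CPM in cKO mice, and 3 of 5 tested passed as higher. The 8 stromal markers summed to 626 to 2129 CPM in control and 199 to 775 CPM in cKO mice, with 0 passing in edgeR. Of the T, NK and innate lymphoid cell markers 1 of 9 tested passed as lower, and of the B and plasma cell markers 0 of 5 passed in edgeR.

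The cells fell into 9 clusters, made without the Phf11 genes and the interferon genes on the lists read below. The clusters were named only where markers led them. The sample labels call the cells monocytes and macrophages, while 535 of them were dendritic cell-like (led by Cd209a, Cd24a, Xcr1, Klrd1 and Tnni2), 182 lymphoid-like (Jchain, Mzb1, Ly6d, Gzmb and Cd79a) and 86 stromal-like (Dcn, Col3a1, Adamdec1, Sparc and Col1a2). Monocyte-like cells (371; Chil3, Pglyrp1, the unnamed gene ENSMUSG00000102843, Mgst1 and Chil4) and macrophage-like cells (475; Fcrls, Pf4, C1qc, C1qa and Ms4a7) bore the labelled identity. The 753 cells of the Hes1 Ccr2 cluster (led by genes that include Hes1, Ccr2, Egr2 and Ccl3), the 335 of the Dmkn Slpi cluster (Dmkn, Slpi, Il1a, F10 and Arg2), the 227 of the Saa3 Arg1 cluster (Saa3, Arg1, Ccl24, Il1rn and Il1a) and the 249 of the Ccl8 Pf4 low-UMI cluster (Ccl8, Cela1, Pf4, Folr2 and Npl) stayed without a type. The last had a median UMI count of 0.236 times that of its own mice.

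In control mice the family was highest in dendritic cell-like cells, at 321, 363, 702 and 458 CPM in mice 1 to 4 (family sum; means over mice with at least 20 cells throughout). Monocyte-like cells followed at 522, 334 and 256 CPM in mice 1, 2 and 4. The Ccl8 Pf4 low-UMI cluster stood at 142, 268 and 73.3 CPM in the same 3 mice, and macrophage-like cells at 115, 139 and 138 CPM. The Hes1 Ccr2 cluster stood at 115, 132, 78.7 and 154 CPM and lymphoid-like cells at 90.1, 78.8 and 102 CPM. The stromal-like, Dmkn Slpi and Saa3 Arg1 clusters had 1 control mouse each with enough cells, at 155, 110 and 76.1 CPM. Dendritic cell-like cells were 23.5% of control cells and held 62.7% of their family UMIs, against 39.8% of all UMIs. In cKO mice they were 7.19% of cells and held 15.8% of the family UMIs, against 12.6% of all UMIs.

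Neighbours in this order were compared within mice, and the differences are given with no test because the levels chose the family. The differences use cKO mice as well as control mice, on the log2(CPM + 10) scale. Dendritic cell-like and monocyte-like cells differed by 0.13 ± 0.49 (SD; 6 mice, 3 of them control, higher in 5 of 6). Monocyte-like cells were above the Ccl8 Pf4 low-UMI cluster by 0.69 ± 0.87, in 5 of 6 mice, and the macrophage-like and Hes1 Ccr2 clusters differed by 0.04 ± 0.84, with 3 control mice among the 6 in both pairs. These 3 differences were smaller than their SD. The 3 lower pairs had 4 mice, of which 1 was a control, so they describe mainly cKO mice. The difference was 0.08 ± 0.53 for Hes1 Ccr2 against Dmkn Slpi and 1.16 ± 0.76, higher in 4 of 4, for Dmkn Slpi against lymphoid-like cells. For lymphoid-like against Saa3 Arg1 it was -1.45 ± 1.48, opposite to the control order. Pairs with the stromal-like cluster had too few shared mice. Dendritic cell-like against monocyte-like cells turned its sign without control mouse 4 (-0.012), as did Hes1 Ccr2 against Dmkn Slpi (-0.047), and macrophage-like against Hes1 Ccr2 turned without cKO mouse 6 (-0.28).

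Within clusters, cKO mice with enough cells were above control mice by the family sum in each of the 6 clusters with at least 2 mice per condition. Macrophage-like cells stood at 678, 698 and 588 CPM in cKO mice 6 to 8, all above the 115 to 139 CPM of control mice, with a log2 fold change of 2.22 ± 0.43 (standard error, 3 mice each). Every cKO mouse exceeded every control mouse for 6.59% of the 11360 genes tested in this cluster. The control group held no sum of mouse 3, which had 10 macrophage-like cells with 80 family UMIs, 45 of them in 1 cell. With sums of at least 10 cells this mouse entered at 957 CPM, above all cKO mice, and the log2 fold change fell to 1.14.

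The Hes1 Ccr2 cluster stood at 214, 1101 and 944 CPM in cKO mice 6 to 8, all above the highest control mouse (154 CPM), with cKO mouse 6 far below the others. Its log2 fold change was 2.52 ± 0.39 (4 control and 3 cKO mice; 1.74 with graph clustering), and 3.47% of genes were as cleanly apart in it. The Ccl8 Pf4 low-UMI cluster stood at 618, 1067 and 762 CPM, a log2 fold change of 2.38 ± 0.59 (3 mice each) that rests on few molecules (28 family UMIs in all control and 125 in all cKO cells of the cluster), with 2.16% of genes apart.

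Dendritic cell-like cells stood at 804, 993 and 1166 CPM in cKO mice 6 to 8, above the control range of 321 to 702 CPM, with a log2 fold change of 1.04 ± 0.36 (4 control and 3 cKO mice) and 3.27% of genes apart. Monocyte-like cells stood at 793, 780 and 1055 CPM against 256 to 522 CPM in control, a log2 fold change of 1.29 ± 0.42 (3 mice each) with 6.35% of genes apart. Lymphoid-like cells, outside the sorted lineage, stood at 107, 393 and 227 CPM against 78.8 to 102 CPM, a log2 fold change of 1.42 ± 0.57 (3 mice each) with 3.80% of genes apart. By the highest copy per cell the conditions overlapped in lymphoid-like cells, with cKO mouse 6 at 60.9 CPM and control mouse 4 at 65.3 CPM. In the Dmkn Slpi cluster the 3 cKO mice stood at 354, 883 and 795 CPM and in the Saa3 Arg1 cluster at 858, 744 and 1205 CPM, beside the single control values of 110 and 76.1 CPM. Taken as the highest copy per cell, the 6 log2 fold changes were lowest in dendritic cell-like cells (0.90) and highest in the Hes1 Ccr2 cluster, followed by macrophage-like cells (1.97).

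**Figure D3:**
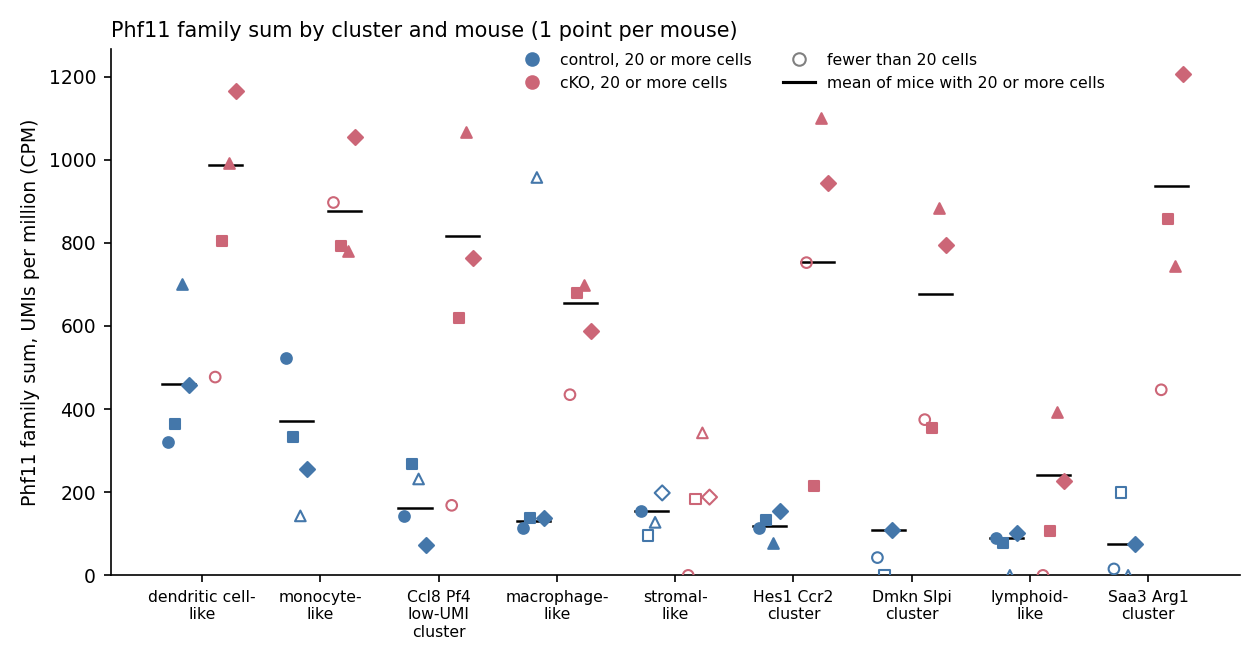
Phf11 family sum in CPM for each cluster and mouse, with filled points for mice with at least 20 cells in the cluster, open points for fewer, and lines at the mean of the filled points. Control levels are highest in dendritic cell-like and monocyte-like cells, and the open control triangle at 957 CPM is the mouse with 10 macrophage-like cells.

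Each cluster was also set against all other cells of its own mouse, again as a description with no test. Dendritic cell-like cells were above the rest of their mouse by 1.27 ± 0.23 in control (SD, n = 4) and by 0.46 ± 0.18 in cKO mice (n = 3) on the log2(CPM + 10) scale, a difference of -0.81. Macrophage-like cells were 0.99 ± 0.05 below the rest of their mouse in control and 0.20 ± 0.50 below in cKO mice (n = 3 each), a difference of 0.78 that fell to 0.17 with sums of at least 10 cells. The Hes1 Ccr2 cluster moved from -1.41 ± 0.88 (n = 4) to -0.34 ± 1.06 (n = 3), with differences of 0.63 to 1.67 when single mice were left out, the highest without cKO mouse 6. The Ccl8 Pf4 low-UMI cluster differed between conditions by 0.82, or 0.31 without control mouse 4, lymphoid-like cells by -0.47 and monocyte-like cells by -0.32. The last turned to 0.10 without control mouse 1.

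The share of cells with a family UMI was higher in every cKO mouse than in every control mouse. Over all cells the share was 30.2% of 1863 control cells (Wilson 95% interval 28.1 to 32.3) and 51.3% of 1350 cKO cells (48.7 to 54.0), at median depths of 5069 and 4834 UMIs. Thinned to 1000 UMIs per cell, leaving out 99 control and 79 cKO cells that were shallower, the shares were 12.5% and 33.9%. Per mouse, the thinned shares were 9.57%, 12.9%, 17.9% and 15.2% in control and 34.6%, 30.5%, 34.6% and 35.8% in cKO mice. The groups did not overlap, and control mouse 3 was again the highest control. How many other genes were as cleanly apart in their shares of cells was not tested. Intervals and counts here cover counting error only.

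The thinned share was highest in monocyte-like cells of cKO mice, at 48.9% of 221 cells (42.4 to 55.4), against 18.8% of 138 control cells (13.2 to 26.2). Dendritic cell-like cells had 24.9% of 430 control cells (21.0 to 29.2) and 35.5% of 93 cKO cells (26.5 to 45.6), and these intervals overlap. Macrophage-like cells had 9.01% of 355 control cells (6.46 to 12.4) and 37.6% of 109 cKO cells (29.1 to 47.0). Lymphoid-like cells had 5.62% of 89 control cells (2.42 to 12.5) and 17.6% of 91 cKO cells (11.1 to 26.7), with median depths of 3785 and 3340 UMIs. No cell type in the sort is known to lack these genes, and the part of free RNA in the lymphoid-like share was not tested.

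**Figure D4:**
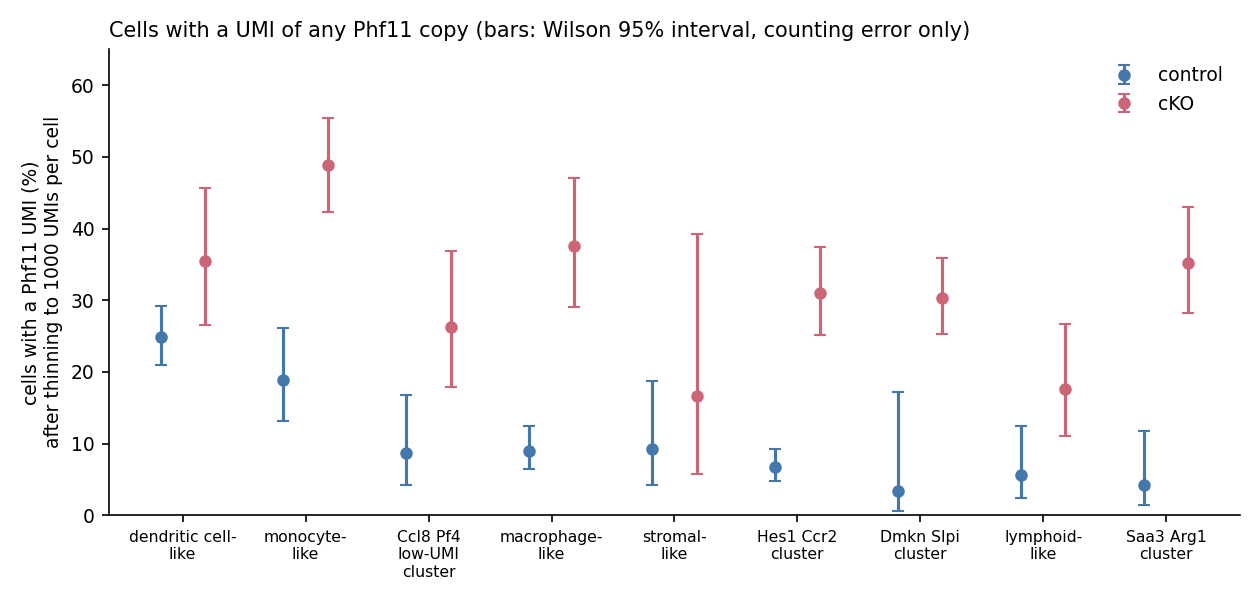
Percent of cells with a UMI of any Phf11 copy after thinning each cell to 1000 UMIs, by cluster and condition, with Wilson 95% intervals that cover counting error only. Monocyte-like cKO cells are the highest at 48.9%, and the dendritic cell-like intervals of control and cKO overlap.

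The UMIs were unevenly spread over cells. In cKO mice the 135 cells (of 1350) with the most UMIs of each measure held 57.2% of the family sum and 52.7% of the highest-copy count. They held 40.7% of the UMIs of Irf7, a factor that amplifies the interferon response. Irf7 had 5214 UMIs there, beside 5307 of the family sum but 1860 of the highest-copy count. By the latter measure the family and Irf7 were not compared at equal counts. Irf7 was found in 76.2% of cKO cells and the family in 51.3%. In control mice the top 186 of 1863 cells held 67.8% of the family sum and 74.8% of Irf7. At least 20 family UMIs were found in 55 cKO cells and 15 control cells. Of the latter, 11 were dendritic cell-like.

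The shares of the copies among the family's UMIs are given as a description, without a test, because levels of the single copies chose the family. They come from the same counts of single copies as the levels above, so they restate unequal changes of the copies. A rise in the share of a copy lowers those of the others, so the 4 shares are not independent. Phf11b made up 32.9% ± 2.9 of the family's UMIs in control mice and 29.9% ± 1.6 after tamoxifen (SD over 4 mice each). Phf11d made up 18.9% ± 0.9 and 21.7% ± 0.7, with all 4 cKO mice (21.2% to 22.5%) above all 4 control mice (17.96% to 19.9%). Phf11a (24.05% ± 1.4 and 23.4% ± 0.7) and Phf11c (24.1% ± 1.1 and 24.9% ± 0.9) differed by less than the spread between mice. Without control mouse 3 the differences of Phf11b, Phf11c and Phf11d were -4.38, 1.32 and 2.96 percentage points, and that of Phf11a turned to 0.10. Within the Hes1 Ccr2 cluster alone the differences of Phf11d, Phf11c and Phf11a were -0.31, -0.30 and 1.06 points, of the opposite sign. Shares were not corrected for transcript length or for reads that fit several copies.

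Genes on either side of the family did not pass the test. The annotation holds 17 other genes within 500000 bases of either end, of which 7 were in the table and 6 were tested. Setdb2, a histone methyltransferase gene 6628 bases from Phf11c at chr14:59402009-59440884 on the minus strand, stood at 8.50 ± 2.37 CPM in the controls against 7.88 ± 1.33 CPM in the cKO group (SD over 4 mice each), with a log2 fold change of 0.13 ± 0.29. The fit rescales libraries by TMM, and here its sign was opposite to that of the plain means, so no direction is given. Gm6904, a protein-coding gene 16697 bases beyond Phf11a at chr14:59244441-59260216, had 12 control and 10 cKO UMIs in all and a log2 fold change of 0.35 ± 0.72, also opposite in sign to its means (1.64 and 1.10 CPM). Rcbtb1, at chr14:59201209-59237265 on the plus strand, had one of -0.06 ± 0.35. Cab39l (chr14:59440972-59585764, plus strand) and Cdadc1 (chr14:59559388-59597959, minus strand), which overlap each other, stood at -0.08 ± 0.21 and 0.79 ± 0.27, and the ribosomal pseudogene Rpl13-ps3 (chr14:58893506-58894129) at -0.03 ± 0.19. Its reads may come from Rpl13 itself. None of the 6 passed in edgeR or DESeq2, while 4.43% of all genes tested passed in edgeR. With both tools 1 of 6 had an unadjusted p under 0.05, and the share of all genes with such a p is not given here. Shisa2 had no UMI in the cells kept. In the 6 clusters, 0 of 36 edgeR tests of these neighbours passed, while the share of all genes that passed in either direction was 0.563% in macrophage-like cells, 0.537% in the Hes1 Ccr2 cluster, 0.220% in dendritic cell-like, 0.0616% in lymphoid-like and 0.0440% in monocyte-like cells and 0.00880% in the Ccl8 Pf4 low-UMI cluster.

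**Figure D5:**
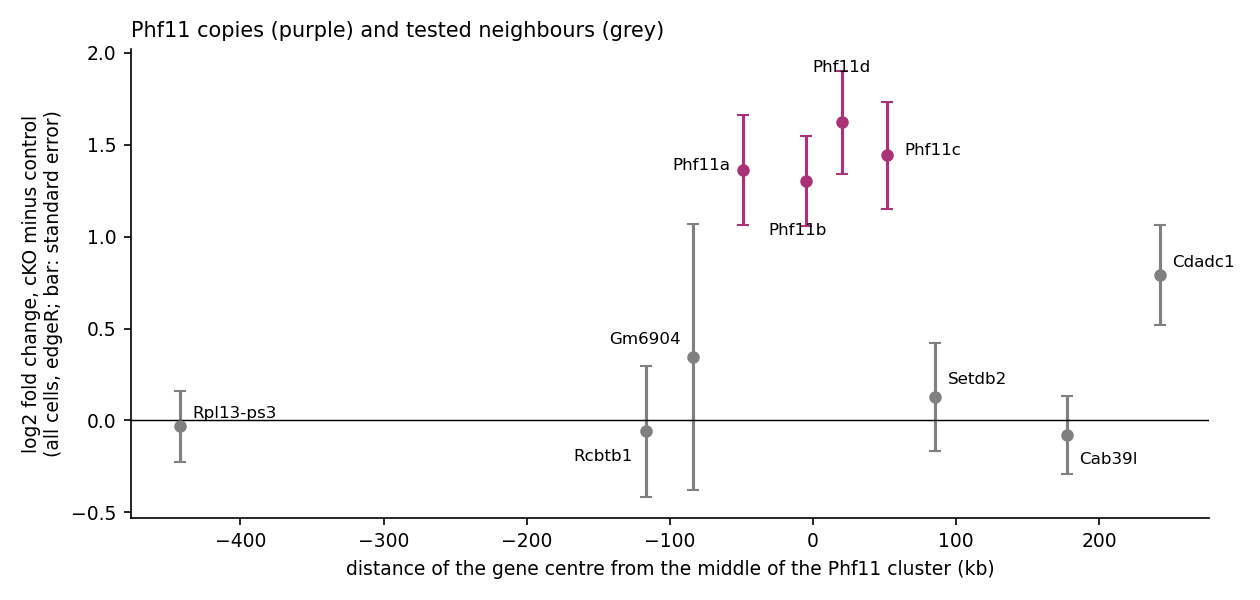
Log2 fold change between cKO and control mice over all cells, with its standard error, for the 4 Phf11 copies (purple) and the 6 tested neighbours (grey) against the distance of the gene centre from the middle of the cluster in kilobases. The copies lie between 1.30 and 1.62, and Setdb2, the nearest neighbour, lies at 0.13.

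Interferon genes were read beside the family from lists of the pathway, chosen with earlier results of these data known. Ligands were hardly seen: Ifnb1, which encodes interferon beta, had 2 UMIs in control and 8 in cKO mice, Ifng had 15 and 14, neither passed the low-count filter, and the other 8 ligands were not analysed here. Of 5 tested receptor genes, Il10rb, a chain shared by interferon lambda and interleukin 10 receptors, rose by 0.62 ± 0.17 (log2; edgeR, adjusted p = 0.049), a call kept in 4 of 15 alternatives and lost whenever a single mouse was left out. Of 11 kinases and transcription factors, 4 rose and 1 fell, against 2.87% and 1.55% of the 11387 genes tested. Irf7 rose from 99.0 ± 44.2 to 719 ± 143 CPM (SD, n = 4 each; log2 fold change 2.97 ± 0.31, edgeR, adjusted p = 0.0010). Irf8, a factor of the dendritic cell lineage, fell by 0.89 ± 0.18 (log2; edgeR, adjusted p = 0.012), with the dendritic cell markers given above.

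Of 60 tested interferon-stimulated effectors, 53 rose and none fell in edgeR (54 and none in DESeq2). Of all 11387 genes tested in edgeR, 2.87% rose and 1.55% fell, and these shares stand beside every list count here. All 60 effectors had a positive fold change with a median of 1.39 (log2). The copies lay on both sides of that median, Phf11a and Phf11b below it and Phf11c and Phf11d above it. The effectors with the largest changes were Ifi44 (4.34 ± 0.38, edgeR, adjusted p = 5.1e-05), Ifi213, a cytosolic DNA sensor relative (3.27 ± 0.23, adjusted p = 4.2e-06), and Oas3, an oligoadenylate synthetase (3.08 ± 0.25, adjusted p = 1.3e-05). Of 7 signalling inhibitors, Usp18, which binds the interferon receptor and removes ISG15, rose by 1.83 ± 0.35 (edgeR, adjusted p = 0.022), a call kept in 12 of 15 alternatives with adjusted p up to 0.090. Of 20 genes associated with interferon gamma, 7 rose and 1, Ciita, which drives MHC class II genes and was named after its value was seen, fell, with the GTPases Gbp6 at 2.12 ± 0.29, Iigp1 at 2.11 ± 0.33 and Gbp4 at 1.34 ± 0.30 (edgeR, adjusted p = 0.0013, 0.0041 and 0.024). The call of Gbp4 was kept in 11 of 15 alternatives, with adjusted p up to 0.10. Over all lists together 66 genes rose, 42 without control mouse 1 and 43 without cKO mouse 8, and 3 fell, 1 without control mouse 1, control mouse 2, cKO mouse 7 or cKO mouse 8.

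The genes of DNA end resection and replication protein A, with which human PHF11 has been linked, did not pass as higher. Over all cells none of the 11 tested passed as higher in edgeR or DESeq2, while 5 of 11 had an unadjusted p under 0.05 as lower with both tools. The share of all genes with such a p is not given here. The median log2 fold change was -0.34, and 3 of 11 were positive. Rpa1, the large subunit of replication protein A, fell from 36.4 ± 11.8 to 19.6 ± 6.1 CPM (SD, n = 4 each; log2 fold change -0.94 ± 0.25, edgeR, adjusted p = 0.049), a call kept in 8 of 15 alternatives, with adjusted p between 0.011 and 0.18. Within clusters, 2 of 11 had an unadjusted p under 0.05 as lower (edgeR) in dendritic cell-like and in lymphoid-like cells. In macrophage-like and monocyte-like cells 0 of 11 did, with 1 higher in each, and 0 of 11 did in the Hes1 Ccr2 and Ccl8 Pf4 low-UMI clusters. The part of cell types in the fall over all cells was not tested. Of 14 other PHD finger genes tested over all cells, 0 passed in edgeR or DESeq2 and 0 had an unadjusted p under 0.05, with a median log2 fold change of -0.22.

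Within clusters, 24 of 60 effectors passed as higher in macrophage-like cells, 23 in the Hes1 Ccr2 cluster, 15 in dendritic cell-like cells, 2 in lymphoid-like cells and 1 in the Ccl8 Pf4 low-UMI cluster, against 0.423%, 0.467%, 0.202%, 0.0352% and 0.00880% of all 11360 genes tested. None of the 60 fell in edgeR in any of the 6 clusters, while 0.0704% of all genes passed as lower in the Hes1 Ccr2 cluster, 0.141% in macrophage-like, 0.0176% in dendritic cell-like and 0.0264% in lymphoid-like cells. In monocyte-like cells 0 of 60 passed in edgeR, where 0.0440% of all genes passed as higher, while 4 passed in DESeq2 and 1 in limma-voom. An unadjusted p under 0.05 was found for 16 (edgeR), all higher, and the share of all genes with such a p is not given here. The median effector changed by 0.46 (log2) there, beside 1.29 for the family sum, and by 1.81 in macrophage-like cells, beside 2.22. These counts moved with single mice: over all lists, macrophage-like cells had 25 genes higher, 12 without control mouse 1 or cKO mouse 8 and 14 without control mouse 2. The Hes1 Ccr2 cluster had 26, with 8 without cKO mouse 7 and 12 without cKO mouse 8. Dendritic cell-like cells had 15, with 9 without control mouse 1, control mouse 2 or cKO mouse 7, 5 without cKO mouse 8 and 24 without cKO mouse 6.

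Across 47 sums of a mouse and a cluster, which share mice, libraries and depth, the genes whose level most resembled the family sum were interferon-stimulated. The sums span both conditions and all clusters, whose levels chose the family, so this ranking is a description. Of 11356 genes, Ifit2, an interferon-induced inhibitor of translation, came first (Pearson's r = 0.84, Spearman's rho = 0.82 on log2(CPM + 10)). Mndal (0.84 and 0.84), Usp18 (0.84 and 0.85), Oasl1 (0.82 and 0.81), Ifi211 (0.81 and 0.80) and Ifi44 (0.81 and 0.81) followed. After the mean of each cluster and condition had been taken away, the highest values were 0.75 for Klhl9, an adaptor of a ubiquitin ligase with r = -0.01 before, 0.68 for Ifit2 and 0.67 for Mndal. Usp18, Oasl1, Ifi211 and Ifi44 then came to 0.53, 0.50, 0.59 and 0.58. Irf7 was at 0.74 before and 0.07 after this step, and Setdb2 at 0.16 and 0.32.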

How the data were processed

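Single-cell RNA was measured in 4 control and 4 cKO mice. The authors aligned the reads with Cell Ranger and STAR 2.5.3a to mm10 and deposited raw UMI counts per gene and cell, without normalization, for all mice in a table. No column of cells was left without a sample. Multiple alignments of a read were reduced to 1, so reads that fit several Phf11 copies make single copies uncertain. Cells were kept as in the methods (log10 UMIs at least 2.8, log10 genes at least 2.6, at most 5% mitochondrial, no hemoglobin UMI), which left 3213 of 5947 barcodes with 497531 to 3762314 UMIs per mouse. In all, 51 cell codes occur in more than 1 library. Scrublet (scanpy 1.11.5) called 73 doublets, which were kept, 24 of them in cKO mouse 5. Cells were clustered with scran 1.30.0 on 11735 genes without the family and the interferon lists.

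Counts were summed per mouse, and per mouse and cluster from at least 20 cells, over genes above 1 CPM in 3 sums and seen in 20 cells. They were tested with edgeR 4.0.16 (TMM, quasi-likelihood, false discovery rate 0.05 over all genes), with DESeq2 1.42.0 and limma 3.58.1 as alternatives. Tests planned for the copy shares and for the family's level between clusters are not given, since levels of the copies and clusters chose the family. Each mouse was a separate animal in a separate well. In simulated counts for the comparison of all cells, with 11366 genes, 86.6% of 4-fold changes (97 genes) and 15.2% of 2-fold changes (99 genes) were recovered. For the Hes1 Ccr2 cluster, with 11346 genes, 47% of 4-fold and 5% of 2-fold changes (100 genes each) were recovered. A gene that did not pass, over all cells or within a cluster, may therefore still have changed. The members and lists were chosen with earlier results of these data known. Named were the members, neighbours within 500000 bases, up to 3 genes per list that passed with the largest change, detected ligands, 6 genes most like the family and 3 after group means were removed, and 5 leading genes per cluster. Some genes that this rule names are not reported here. Positions are those of GENCODE vM21, and promoters those of RefSeq.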

Additional observations from a re-analysis of the deposited data

Results flagged for a closer look

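Control mouse 3 stood apart from the other control mice. Its Phf11a level, 124 CPM beside 48.4 to 60.9 CPM in the other 3, and its share of Phf11c among the family's UMIs, 25.8%, lay far from the rest of their groups by Dixon's criterion for the gap to the nearest sample over the whole range. The Phf11c share of cKO mouse 5, 26.2%, did so too. Both mice had the smallest libraries, and 22 groups of 4 mice were checked, of which chance alone flags about 1 in 20.

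The 2734 barcodes that the cell filters left out were not used in the comparisons. The family sum in them was 408 ± 58 CPM in cKO mice (SD, n = 4; 251 UMIs in all), above the 152 ± 71 CPM of control mice (94 UMIs). How many other genes differed in these barcodes was not tested.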

How the results depend on the processing

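Of 631 alternative values, 551 kept their direction and side of the threshold or stayed within the spread between mice, 69 moved and 8 reversed. The other 3 were copy shares that newly passed without control mouse 3, in tests not given here. No paired analysis was possible because control mice carry the numbers 1 to 4 and cKO mice 5 to 8. The family difference over all cells (log2 1.35) ranged from 1.22 to 1.67 with single mice left out and from 1.23 to 1.79 under the other settings. Per cluster it moved in macrophage-like cells, to 1.14 with sums of at least 10 cells and to 1.97 for the highest copy per cell. In the Hes1 Ccr2 cluster it came to 1.74 with graph clustering. In dendritic cell-like cells it came to 0.70 with all genes used for clustering and to 0.85 without cKO mouse 8. In the largest myeloid cluster the copy shares of Phf11a, Phf11c and Phf11d turned to 1.06, -0.30 and -0.31 percentage points, and the cause was not tested. With single mice left out the shares ranged from -0.98 to 0.10 (Phf11a), -4.38 to -2.19 (Phf11b), 0.33 to 1.32 (Phf11c) and 2.49 to 3.14 (Phf11d), the monocyte-like contrast with the rest from -0.64 to 0.10, and 3 neighbouring pairs from -0.012 to 0.29 (dendritic cell-like, monocyte-like), -0.047 to 0.34 (Hes1 Ccr2, Dmkn Slpi) and -0.28 to 0.18 (macrophage-like, Hes1 Ccr2). List genes higher over all cells ranged from 42 to 66 and lower from 1 to 3 with single mice left out. Per cluster, genes higher with DESeq2, without the low-count filter and with clusters fitted alone were 6, 6 and 12 (Ccl8 Pf4 low-UMI), 12, 11 and 21 (lymphoid-like) and 5, 6 and 18 (monocyte-like), and 30 and 27 with the first 2 settings in dendritic cell-like cells. Clusters fitted alone gave 45 in macrophage-like cells. Limma-voom gave 25 (dendritic cell-like), 3 (monocyte-like) and 0 (Ccl8 Pf4 low-UMI), and sums of at least 10 cells gave 1 in lymphoid-like and 1 in monocyte-like cells. With single mice left out the ranges were 0 to 6 (Ccl8 Pf4 low-UMI), 8 to 36 (Hes1 Ccr2), 5 to 24 (dendritic cell-like), 0 to 7 (lymphoid-like), 12 to 30 (macrophage-like) and 0 to 2 (monocyte-like). Thinning lowered the shares of cells with a UMI to 12.5% and 33.9%, through its own construction. The highest copy per cell and the removal of the 2 smallest libraries were chosen after seeing the data. Monocyte-like and Dmkn Slpi cells fell in 1 cluster when all genes were used for clustering, so that setting gives both the same value.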
